A study of Mus musculus with 8 samples.

Results

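The zinc finger cluster on distal mouse chromosome 4 was taken as every row of the count table whose first listed chromosome is 4, whose lowest start lies in a fixed window of 3.2 Mb near the end of the chromosome (GRCm38), and whose symbol begins with Zfp or Gm or ends in Rik. The rule found 83 genes of 55487 in the table, on chromosome 4 with starts from 145390943 to 148071392. The annotation divides them into 21 protein-coding genes, 53 pseudogenes, of which 50 are processed, and 9 long noncoding RNAs. Of the 21 coding genes, 18 carry a Zfp symbol, and Gm13212, Gm21411 and 2510039O18Rik are the others. No measured value entered the rule. The name fits the coding genes only: most of the 83 members are retrocopied genes that lie between the zinc finger genes. In 64 members the counts were high enough to be tested, 19 were not tested, and 2 of these had no count in any library.

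Zinc finger proteins of this kind hold rows of C2H2 fingers, each a short fold around a zinc ion that reads a few bases of DNA, joined by a conserved linker. In many mouse members of the class a KRAB domain lies before the fingers and recruits the co-repressor TRIM28, with the methyltransferase SETDB1 and HP1 proteins, to the bound site. The genes stand in large clusters that grew by local duplication, and they are best known for silencing retrotransposons in embryonic stem cells and in the germ line. Processed pseudogenes are copies of spliced messenger RNAs put back into the genome by retrotransposition, and most encode no protein.

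RNA was sequenced from fetal testis germ cells sorted by fluorescence in C57BL/6 mice. The 4 libraries labelled KO came from Rhox10-null animals that were also Oct4-eGFP+/+, and the 4 labelled WT from Oct4-eGFP+/+ littermates with wild-type Rhox10. All 8 therefore carried the reporter, in which regulatory sequence of the pluripotency gene Oct4 drives a green fluorescent protein in germ cells. Rhox10 encodes an X-linked homeobox protein of male germ cells; the labels give neither the fetal age nor whether each library is a separate animal. A p-value here therefore weighs the spread among libraries only, which may be technical. WT and KO libraries below are meant as labelled.

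The deposited counts summed to between 16346977 and 20311338 per library, and the cluster held 0.1237 to 0.1299% of them. Rhox10 itself did not check the labels: its mean was 1.08 ± 0.117 CPM in WT and 0.882 ± 0.220 CPM in KO libraries (SD, n = 4 each), and edgeR's adjusted p was 0.767. What the null allele removes is not given in the labels. Germ cell markers were present, with Ddx4, an RNA helicase of germ cells, at 44.5 and 43.4 CPM, while 5 markers of Leydig cells, the steroid-making cells of the testis, summed to 2804 to 2835 CPM in WT and 2545 to 2584 CPM in KO libraries. The 10 germ cell markers summed to 169 to 186 and 174 to 183 CPM, but 3 of the 9 tested passed: Dazl (log2 fold change 0.37) and Dppa3 (0.41) were higher and Tdrd1 (-0.43) was lower in the KO libraries. Markers of other cells moved with the label: all 8 genes of tubular and duct epithelium were higher with the KO label (42.4 to 45.9 against 86.1 to 96.8 CPM in sum), 4 of 6 erythroid genes were lower (210 to 226 against 82.1 to 86.5), and so were 4 of 5 Leydig genes and 2 of 5 genes of striated muscle. In endothelium 2 of 5 genes, Kdr (0.22) and Pecam1 (0.23), were higher, with sums of 159 to 174 against 179 to 188 CPM. In macrophages 3 of 6 genes were tested, and 1, Lyz2 (-0.69), was lower, while Csf1r (-0.16) and Cd68 (-0.21) did not pass. Of 7 Sertoli cell genes 1, Inha (-0.14), was lower and 6 did not pass, with 2 of the 7 above 0 and 5 below. The Sertoli genes summed to 621 to 646 CPM in WT and 604 to 629 CPM in KO libraries. No marker of these lists was at 0 in all libraries. Their part in the results on the cluster was not tested, and in bulk RNA fewer cells of a type cannot be told from less RNA per cell.

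The members share so much sequence that reads often have several possible sources. Each gene's annotated transcripts (GENCODE M21) were cut into overlapping words of 50 bases, and a word was called the gene's own when no other annotated transcript held it on either strand. In 52 of the 83 members under 50% of the words were their own, in 13 at least 90% were, and in 3 none were; the median was 38.2%, or 71.2% with words of 100 bases. Genes were grouped into families where they shared at least 20% of the smaller gene's words, a limit chosen after the data had been seen.

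The clearest shared stretch among the genes that changed was 214 bases long. It was identical in Zfp991 (chr4:147178894-147179107), Zfp992 (chr4:146466550-146466763), Zfp993 (chr4:146657947-146658160) and the pseudogene Znf41-ps (chr4:145828256-145828469), all on the + strand. It lies within the annotated coding sequence of the first 3. It is shown because a read from inside it fits all 4 genes equally well, and because it holds 2 of the linkers between fingers, in capitals.
Zfp991: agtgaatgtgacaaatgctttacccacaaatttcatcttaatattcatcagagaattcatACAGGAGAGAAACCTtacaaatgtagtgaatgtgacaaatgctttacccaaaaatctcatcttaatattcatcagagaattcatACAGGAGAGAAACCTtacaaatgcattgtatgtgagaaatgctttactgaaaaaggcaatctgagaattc

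The linker was searched in transcripts as ACNGGNGANAANCCN, 15 letters in which N is any base, on the transcript's own strand. At least 3 copies stood in 16 of the 21 coding members, against 1.47% of all 21897 coding genes searched. Gm13212 held 20, Zfp600 held 13, Zfp991, Zfp992, Zfp980 and Zfp933 held 10 each, and Zfp982 held 6. Zfp993 held 2, and Gm21411 and 2510039O18Rik held none. A match describes the letters only.

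The starts of these genes are alike as well. RefSeq promoters (GRCm38.p6, 250 bases before to 50 after the start) were at hand for 12 zinc finger genes of the window. Zfp991, Zfp992 and Zfp993 were not among them. Without Zfp933, the 55 pairs were 68.0 to 99.7% identical, with a median of 83.0%, while Zfp933 was at most 55.0% identical to any of them. The 4 below are shown because Zfp600 and Rex2 were lower with the KO label, Zfp980 of the same family had the same sign, and Zfp982 was higher. Capitals mark bases that do not align with the same base of Zfp600, including those past either end of its window, and bases of Zfp600 that another promoter lacks are not marked. Rex2 has 1 such capital, the base at its start, Zfp980 has 29 and Zfp982 has 38. All lie on the + strand, at chr4:146156577-146156876 (Zfp600), chr4:147021600-147021899 (Rex2), chr4:145670447-145670746 (Zfp980) and chr4:147492167-147492466 (Zfp982).
Zfp600: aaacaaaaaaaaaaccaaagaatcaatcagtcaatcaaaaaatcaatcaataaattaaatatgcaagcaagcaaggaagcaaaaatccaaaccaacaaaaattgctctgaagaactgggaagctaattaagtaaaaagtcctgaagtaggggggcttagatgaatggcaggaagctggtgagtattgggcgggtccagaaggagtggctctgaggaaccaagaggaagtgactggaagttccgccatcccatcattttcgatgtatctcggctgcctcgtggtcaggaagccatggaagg
Rex2: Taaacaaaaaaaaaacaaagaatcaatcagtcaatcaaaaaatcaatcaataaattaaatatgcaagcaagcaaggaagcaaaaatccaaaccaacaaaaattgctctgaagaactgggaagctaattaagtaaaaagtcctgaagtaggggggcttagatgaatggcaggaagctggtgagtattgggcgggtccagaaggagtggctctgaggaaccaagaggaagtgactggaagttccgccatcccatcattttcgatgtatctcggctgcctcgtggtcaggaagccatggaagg
Zfp980: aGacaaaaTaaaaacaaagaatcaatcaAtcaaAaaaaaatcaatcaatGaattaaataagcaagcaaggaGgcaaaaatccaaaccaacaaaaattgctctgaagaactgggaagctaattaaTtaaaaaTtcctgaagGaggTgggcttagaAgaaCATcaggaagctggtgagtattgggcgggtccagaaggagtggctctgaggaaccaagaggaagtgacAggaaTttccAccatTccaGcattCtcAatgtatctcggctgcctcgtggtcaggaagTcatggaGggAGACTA
Zfp982: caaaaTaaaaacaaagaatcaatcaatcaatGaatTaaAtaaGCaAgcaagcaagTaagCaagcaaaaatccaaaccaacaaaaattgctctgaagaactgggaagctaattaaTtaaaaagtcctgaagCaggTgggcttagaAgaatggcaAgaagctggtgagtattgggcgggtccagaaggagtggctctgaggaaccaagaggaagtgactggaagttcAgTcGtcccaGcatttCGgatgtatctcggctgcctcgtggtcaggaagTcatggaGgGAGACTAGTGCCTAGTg

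Sharing reached the counts themselves. Gm8178 and Gm13155, copies of the chromatin protein gene Hmgb1 on opposite strands, have identical transcripts of 646 bases and had identical counts in all 8 libraries, with a mean of 98.5. A read that fits both was therefore counted in full at each. Their first 120 bases are shown beside the matching stretch of Gm13170, which is 121 bases long and has 1 extra base, in capitals. The positions are chr4:147378929-147379048 (+), chr4:147624766-147624885 (-) and chr4:146178124-146178244 (+).
Gm8178: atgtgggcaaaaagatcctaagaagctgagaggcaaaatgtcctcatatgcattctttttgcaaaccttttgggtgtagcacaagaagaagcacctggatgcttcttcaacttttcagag
Gm13155: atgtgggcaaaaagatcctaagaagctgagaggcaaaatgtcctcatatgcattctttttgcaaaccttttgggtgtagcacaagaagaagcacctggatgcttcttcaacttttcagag
Gm13170: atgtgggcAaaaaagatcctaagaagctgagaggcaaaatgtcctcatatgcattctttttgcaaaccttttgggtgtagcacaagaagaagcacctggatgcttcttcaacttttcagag

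Gm13170 had a mean count of 53.2, well under that of the identical pair. Past the stretch shown it is less alike: of its 594 words, 297 are also in Gm8178 and Gm13155. Its lower count therefore does not show whether near copies were counted alike. Among all members with a mean count of at least 20, 8 pairs had counts within 10% of each other in every library, and 7 of these pairs belonged to 1 family. Gm13232 and Gm13167, copies of Hmgb2, another chromatin protein gene, differed by at most 1.07%. All words of Gm13167 are found in Gm13232. The exception across families was Gm13232 with Gm13034. Because of this counting, members of a family are not independent measurements of separate genes, and a level given for 1 copy can include reads of the others.

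**Figure D1:**
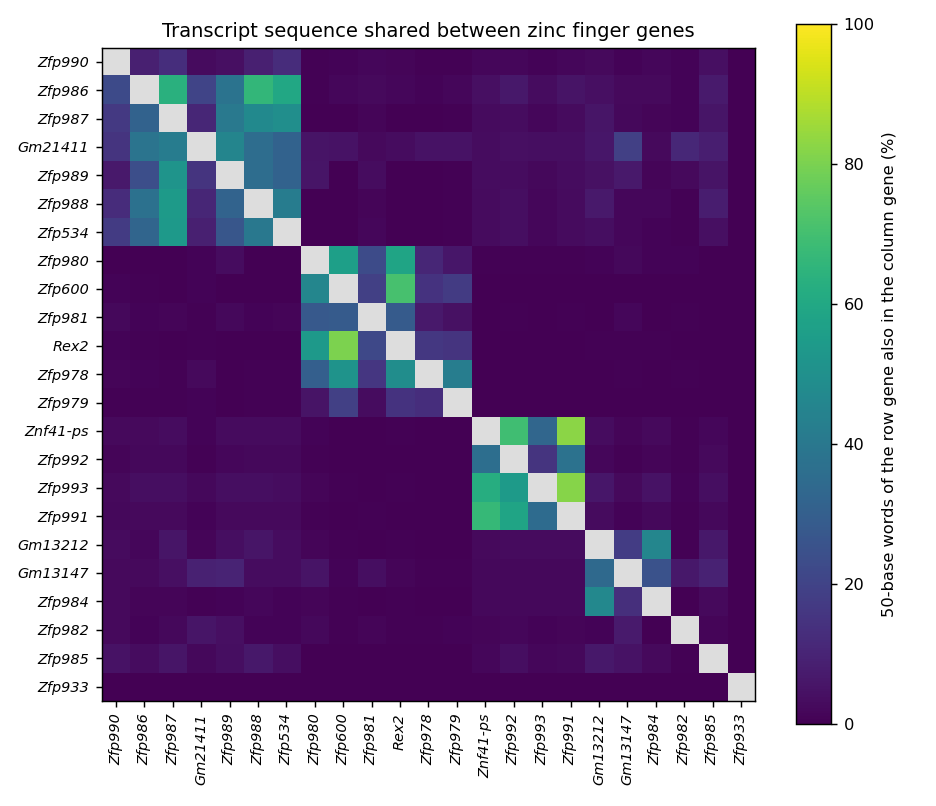
Share of the row gene's 50-base words (%) also found in the column gene, for the coding zinc finger members, the pseudogene member Gm13147 and the neighbours Rex2 and Znf41-ps, ordered by family (grey: the gene itself). Blocks along the diagonal are the families, and Zfp982, Zfp985 and Zfp933 stand outside them.

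Levels per length spanned a wide range. The highest of all members was Gm13237, a copy of Hmgb2, at 184.6 CPM per kb averaged over the 8 libraries, and the other pseudogenes among the 12 highest were copies of Hmgb2, Cdv3 and the ribosomal protein gene Rpl28. Only 1.02% of the words of Gm13237 are its own, and levels of such copies can include reads of the parent genes. The only zinc finger gene among those 12 was Zfp991, at 30.5 CPM per kb. Among the 20 coding zinc finger members it was followed by Zfp993 at 27.9, Zfp982 at 25.5, Zfp992 at 17.3, Gm13212 at 13.8 and Zfp984 at 8.16 CPM per kb. Own words are 17.8% in Zfp991 and 13.2% in Zfp993, against 88.1% in Zfp982. The levels of Zfp991 and Zfp993 can therefore include reads of other copies. The lowest were Zfp985 at 1.01 and Zfp990 at 0.923 CPM per kb, and the median of the 20 was 3.44. The 9 noncoding RNAs were mostly low, with a median of 0.337 CPM per kb and the highest, Gm13166, at 5.56.

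**Figure D2:**
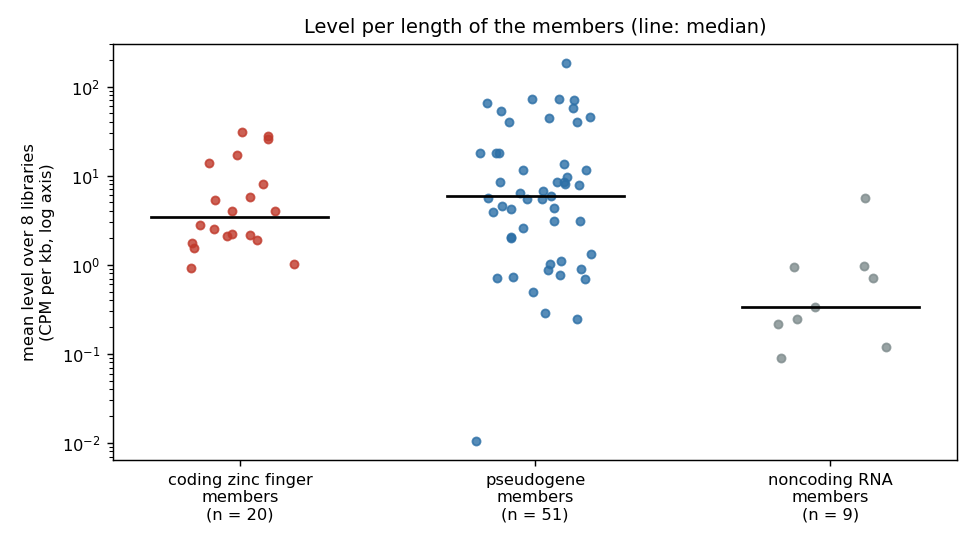
Mean level over the 8 libraries in CPM per kb of exon length (log axis), 1 point for each member with a count, by kind, with the median as a line; 2510039O18Rik is left out. The highest point is the pseudogene Gm13237, whose count can include reads of Hmgb2, and most noncoding RNAs lie under 1 CPM per kb.

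In the KO libraries, 4 zinc finger genes of the cluster were higher and 1 was lower. Zfp991, Zfp992 and Zfp993, which form 1 family, and Zfp982, which stands alone, were higher by 1.15 to 1.21 times. Zfp600 was lower, at 0.830 of the WT mean. These are 5 of 64 members tested, or 7.81%, against 5.14% of all 23190 genes tested (edgeR's quasi-likelihood test, Benjamini-Hochberg adjusted p under 0.05). The members higher were 6.25% against 2.35% of all genes, and the member lower was 1.56% against 2.8%. With an offset for gene length and GC content, 4 members were higher and 6 lower. Over all genes 441 were then higher and 635 lower, against 544 and 649 without the offset. With scaling by library totals alone, 4 members were higher and 3 lower, and the share of called genes that were higher moved from 45.6 to 33.8% over all genes. The median log2 fold change of the 64 was 0.00025 against 0.0020 over all genes, with 33 members above 0 and 31 below. The number of lower members depended on single libraries, being 0 without KO replicate 1 or 3, 2 without WT replicate 1, 3 without WT replicate 4 and 4 without KO replicate 4, and without the last the calls came to 9.

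**Figure D3:**
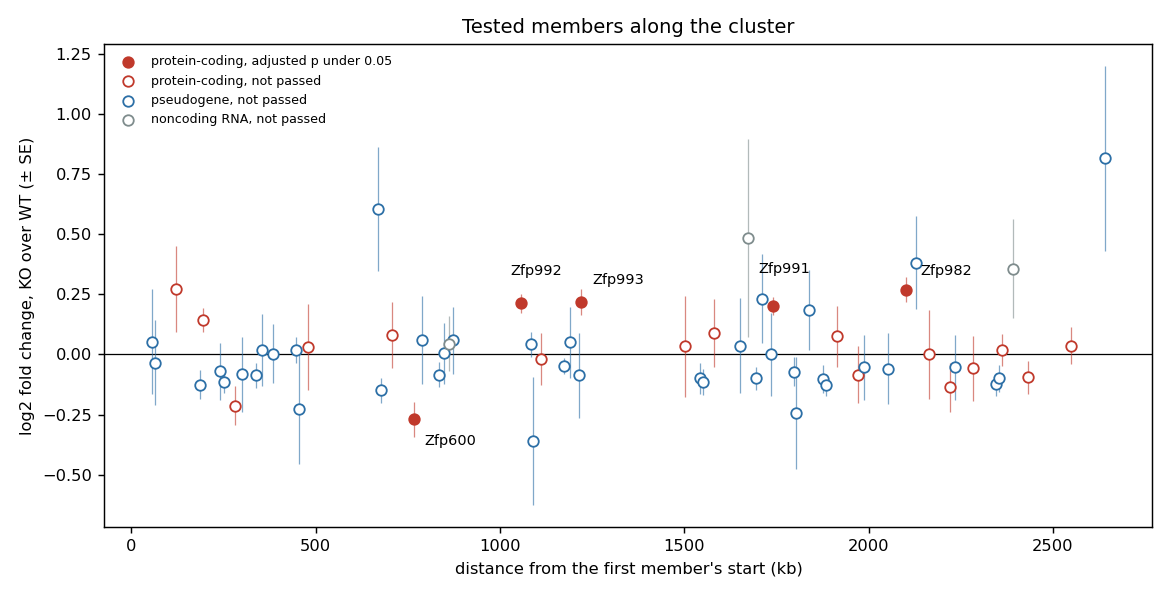
log2 fold change (libraries labelled KO over WT, edgeR) of the 64 tested members against the distance of their start from that of the first member, in kb; bars are standard errors and filled points passed an adjusted p under 0.05. The 4 higher zinc finger genes and the lower Zfp600 lie between members that did not pass.

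Zfp991 stood at 84.2, 77.5, 86.2 and 83.7 CPM in WT replicates 1 to 4 and at 99.4, 97.6, 92.5 and 91.7 CPM in KO replicates 1 to 4. All 4 KO libraries lay above all 4 WT libraries. The means were 82.9 ± 3.76 and 95.3 ± 3.77 CPM (SD, n = 4 each), with a log2 fold change of 0.20 (SE 0.037, edgeR adjusted p = 1.09e-05). The gene, with 10 linkers, also had the highest level of the zinc finger members. Only 17.8% of its words are its own, so that level can include reads of other copies.

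Zfp992 stood at 74.4, 65.5, 75.9 and 75.4 CPM in the WT libraries and at 87.6, 85.9, 82.0 and 81.6 CPM in the KO libraries. The groups did not overlap, and WT replicate 2 was the lowest of all. The log2 fold change was 0.21 (SE 0.039, edgeR adjusted p = 1.53e-05).

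Zfp993 stood at 32.8, 33.5, 32.2 and 33.3 CPM in the WT libraries and at 39.6, 38.1, 39.1 and 36.4 CPM in the KO libraries. Again every KO library was above every WT library. The log2 fold change was 0.22 (SE 0.055, edgeR adjusted p = 0.00416).

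These 3 genes share much of their transcripts: 81.9% of the words of Zfp993 and 37.5% of those of Zfp992 are also in Zfp991. Their own words are 17.8% in Zfp991, 57.0% in Zfp992 and 13.2% in Zfp993. The pseudogene Znf41-ps, which the symbol rule leaves out, belongs to the family too, with 82.8% of its words in Zfp991. It was higher as well, from 69.4 ± 3.11 to 79.6 ± 2.29 CPM (SD, n = 4 each; log2 fold change 0.20, edgeR adjusted p = 8.80e-05). When each family was entered as the mean count of its copies, this family still passed. Which of the 4 copies changed was not tested.

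Zfp982, a gene studied in mouse embryonic stem cells, does not have that limit, since 88.1% of its words were its own and it shared 1.74% of them with Zfp992. It stood at 32.9, 35.1, 34.9 and 34.7 CPM in the WT libraries. In the KO libraries it stood at 43.7, 43.4, 39.6 and 39.7 CPM. The lowest KO library was above the highest WT library, and the log2 fold change was 0.27 (SE 0.054, edgeR adjusted p = 7.85e-05). Its call and that of the Zfp991 family held under every alternative run, with log2 fold changes of 0.25 to 0.29 for Zfp982, 0.15 to 0.22 for Zfp991, 0.16 to 0.23 for Zfp992 and 0.20 to 0.24 for Zfp993.

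Zfp600 was the only member lower at the threshold. Its level was 21.7, 21.8, 22.1 and 21.8 CPM in the WT libraries and 16.5, 19.0, 16.8 and 20.04 CPM in the KO libraries. The WT values were close together, the KO values were spread, and the groups did not overlap. The log2 fold change was -0.27 (SE 0.073, edgeR adjusted p = 0.00905). The call was lost without KO replicate 1 (adjusted p = 0.0641), without KO replicate 3 (0.0724) and when the family was entered once (0.193).

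Its family also holds Zfp978, Zfp979, Zfp980, Zfp981 and the neighbour Rex2, whose symbol falls outside the rule. Zfp600 and Rex2 shared the most, with 80.4% of the words of Rex2 found in Zfp600, and their promoters, printed above, are nearly identical. The promoter of Zfp979, which did not pass, is 96.3% identical to that of Zfp600 and 96.7% to that of Rex2. For Zfp980 the identity is 90.3% to each. Rex2 was lower too: 20.8, 19.5, 20.4 and 19.5 CPM in the WT libraries against 14.8, 16.3, 15.5 and 17.9 CPM in the KO libraries. No KO library reached the WT range, and the log2 fold change was -0.31 (SE 0.076, edgeR adjusted p = 0.00279), though like Zfp600 it did not pass with the family entered once.

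Zfp980 was at 17.0, 17.6, 17.8 and 17.2 CPM in the WT libraries and at 15.7, 14.999, 13.7 and 15.8 CPM in the KO libraries. Its groups did not overlap, yet it missed the threshold (log2 fold change -0.21, SE 0.080, edgeR adjusted p = 0.111). It passed with an offset for gene length and GC content, at -0.26 and an adjusted p of 0.0368. Zfp978 (-0.08), Zfp979 (-0.14) and Zfp981 (-0.02) did not pass either, so all 5 members of the family had a log2 fold change below 0 and 1 passed.

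**Figure D4:**
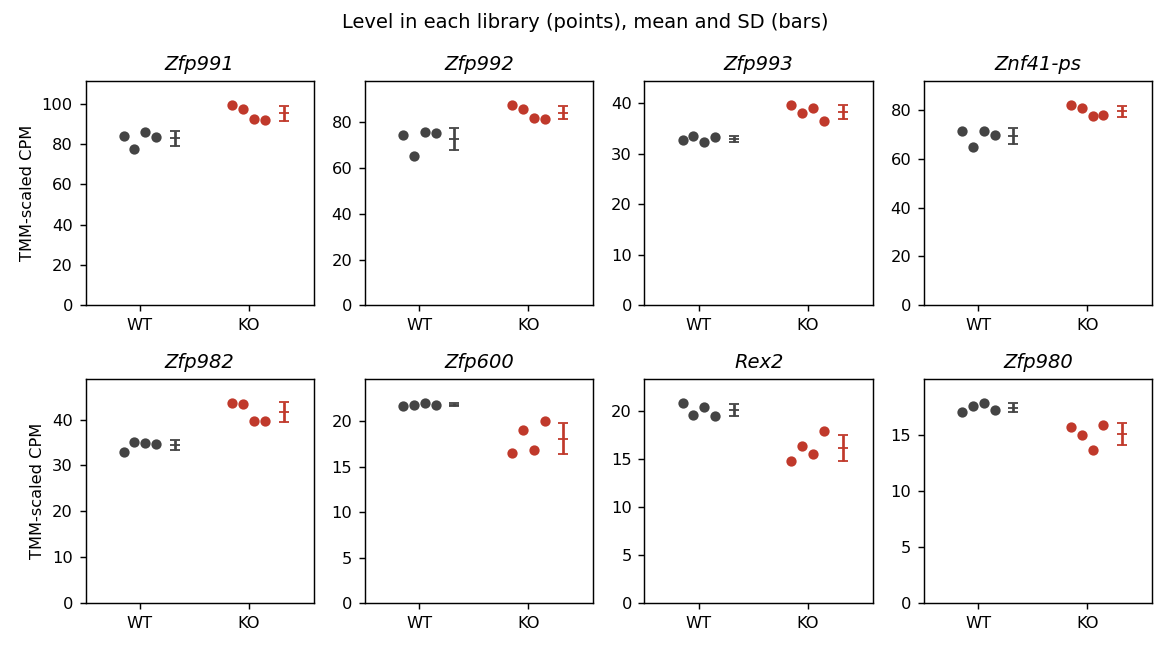
TMM-scaled CPM in each of the 4 WT and 4 KO libraries (points) with the mean and SD beside them, for the family of Zfp991, for Zfp982 and for Zfp600, Rex2 and Zfp980; each axis starts at 0. The KO points lie above the WT points in the first 5 panels and below them in the last 3.

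In 7 of the 64 members, 10.9%, the groups did not overlap, against 9.44% of all genes tested. These were the 5 that passed, Zfp980 and the pseudogene Gm15951, which went from 2.31 to 3.002 CPM (log2 fold change 0.38, edgeR adjusted p = 0.314). An unadjusted p under 0.05 was reached by 17 members, 26.6% against 15.6% of all genes. Copies that share reads are counted singly in these shares, so they are not independent.

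The zinc finger family with the most members held no call. Zfp534, Zfp986, Zfp987, Zfp988, Zfp989, Zfp990 and Gm21411 were low, between 0.923 and 2.22 CPM per kb, and 6 of the 7 had a log2 fold change above 0. None passed in edgeR, in DESeq2 or in limma voom, against 5.14% of all genes in edgeR. An unadjusted p under 0.05 in edgeR was reached by 0 of the 7, against 15.6% of all genes. Values ran from -0.06 for Zfp534 to 0.27 for Zfp990, whose SE was 0.178. Sharing also reached outside the cluster here: from 8.25% of the words of Zfp990 and 38.5% of those of Gm21411 up to 73.4% of those of Zfp987 are found in Gm8935, a pseudogene on chromosome 3, so their levels can include its reads. Gm8935 itself was at 4.86 ± 0.747 CPM in WT and 5.22 ± 0.569 CPM in KO libraries (SD, n = 4 each; log2 fold change 0.10, SE 0.141).

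Gm13212 came closest to passing among the other zinc finger genes. It stood at 51.5, 46.6, 44.3 and 46.3 CPM in the WT libraries and at 50.4, 55.2, 55.9 and 46.6 CPM in the KO libraries. The groups overlapped through WT replicate 1, and KO replicate 4 was hardly above the other WT libraries; edgeR's adjusted p was 0.0664 at a log2 fold change of 0.14. It passed without WT replicate 1 (0.0151), without KO replicate 1 (0.0488), without KO replicate 4 (0.00987) and with upper-quartile scaling (0.0459). Its relative Zfp984, with 46.9% of its words in Gm13212, was at 23.6 ± 1.69 and 23.9 ± 2.27 CPM (SD, n = 4 each; log2 fold change 0.02, adjusted p = 0.943). Exons of Zfp984 overlap those of the noncoding RNA Gm20707 on the same strand, so their reads cannot be told apart there; Gm20707 had means of 2.06 and 2.63 CPM (log2 fold change 0.36, SE 0.205, edgeR adjusted p = 0.411).

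Zfp933 and Zfp985, with 98.2% and 84.1% own words, are the other zinc finger genes that stand alone. Zfp933 was at 23.7 and 22.1 CPM (log2 fold change -0.10, edgeR adjusted p = 0.550). Zfp985 was at 2.89 CPM in both groups. The member 2510039O18Rik, no zinc finger gene and free of shared words, was at 17.5 ± 0.500 and 17.99 ± 1.81 CPM (SD, n = 4 each; log2 fold change 0.04, adjusted p = 0.893).

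Among the 20 coding zinc finger members, then, 4 were higher, 1 was lower and 15 did not pass, with a median log2 fold change of 0.032. The called genes were 25% of these members, against 5.14% of all genes tested. Zfp991, Zfp992 and Zfp993 are copies of 1 family that can share reads, so the called genes are not independent. Summed over the 20 members, the CPM was 427, 405, 419 and 417 in the WT libraries and 461, 461, 443 and 438 in the KO libraries. The KO sums were above the WT sums in every library, and the family of Zfp991 made up much of both. Reads counted at several copies enter these sums more than once.

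Among the pseudogenes no member was called. None of the 40 tested passed in edgeR, DESeq2 or limma voom, against 5.14% of all genes in edgeR. An unadjusted p under 0.05 was reached by 10 in edgeR and by 5 in DESeq2. The pseudogenes' median log2 fold change was -0.057, with 24 below 0 and 16 above. Their summed CPM was 826, 841, 852 and 823 in the WT libraries and 796, 798, 780 and 809 in the KO libraries, so the KO sums were lower without overlap. Reads counted at several copies enter these sums more than once, and reads of parent genes can enter them too. The 10 are 25% of the 40, against 15.6% of all genes tested. Of these 10, 5 are copies of Smarca5 that share words, so the 10 are not independent measurements. With the offset for gene length and GC content, 4 pseudogenes passed, all lower.

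Those 4 are copies of Smarca5, which encodes the ATPase of ISWI chromatin remodellers. The 5 such members, Gm13034, Gm13135, Gm13136, Gm13140 and Gm13231, had log2 fold changes between -0.15 and -0.11 and all 5 an unadjusted p under 0.05, but their smallest adjusted p was 0.0650. Some passed under other settings. Gm13034 did so with library totals (edgeR adjusted p = 0.0328), without WT replicate 1 (0.0424) and without KO replicate 4 (0.0204). Gm13135 did so with library totals (0.0403), without WT replicate 4 (0.0367) and without KO replicate 4 (0.0378), and Gm13136 without WT replicate 4 (0.0393) and without KO replicate 4 (0.0462). Gm13034 stood at 42.9, 47.3, 45.6 and 44.2 CPM in the WT libraries and at 40.7, 40.0, 37.8 and 44.0 CPM in the KO libraries. Its groups overlapped through KO replicate 4 alone.

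Smarca5 itself, on chromosome 8, was at 156.7 ± 0.948 CPM in WT and 148.3 ± 2.30 CPM in KO libraries (SD, n = 4 each; log2 fold change -0.08, SE 0.029, edgeR adjusted p = 0.1005). Between 29.1 and 44.6% of the words of the 5 copies are also found in Smarca5, so reads of the parent gene can be counted at its copies. The gene and its copies had the same sign.

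The 4 copies of Hmgb2 went the same way as their parent gene. Gm13160, Gm13167, Gm13232 and Gm13237 had log2 fold changes of -0.10, -0.09, -0.09 and -0.05, and Hmgb2 had -0.07 (edgeR adjusted p = 0.145). Gm13237 was at 117.7, 123.1, 111.6 and 124.4 CPM in the WT libraries and at 113.4, 119.3, 117.7 and 110.6 CPM in the KO libraries, with wide overlap. Of its words, 62.5% are also in Hmgb2 and 1.02% are its own.

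Copies of Cdv3 were 9 members, 6 below 0 and 3 above, with Cdv3 at -0.06. The highest of the 9 was Gm13036 at 0.60 (SE 0.258, edgeR adjusted p = 0.194). Gm13207, a copy of Nsa2, had the largest log2 fold change of all tested members, 0.81, at a level of 0.862 CPM per kb, and did not pass. The 5 tested copies of Hmgb1 had 2 above 0 and 3 below, with Hmgb1 at -0.04. The 5 copies of Tlk2, which encodes a chromatin assembly kinase, had a median of 0.00038 and Tlk2 itself 0.02. All 4 copies of Ppp2r5a, a regulatory subunit of protein phosphatase PP2A, were above 0, with the gene at 0.04.

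The 4 ribosomal protein copies that could be tested had log2 fold changes below 0. Gm13226, a copy of Rpl28, was at 30.4 ± 1.05 and 27.9 ± 2.19 CPM (SD, n = 4 each; log2 fold change -0.13, edgeR adjusted p = 0.279), and Rpl28 had -0.10 (adjusted p = 0.0661). Of 9 copies of Rplp1, 3 could be tested, with log2 fold changes from -0.36 to -0.23 and standard errors of at least 0.23, beside -0.09 in Rplp1. None of these passed.

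**Figure D5:**
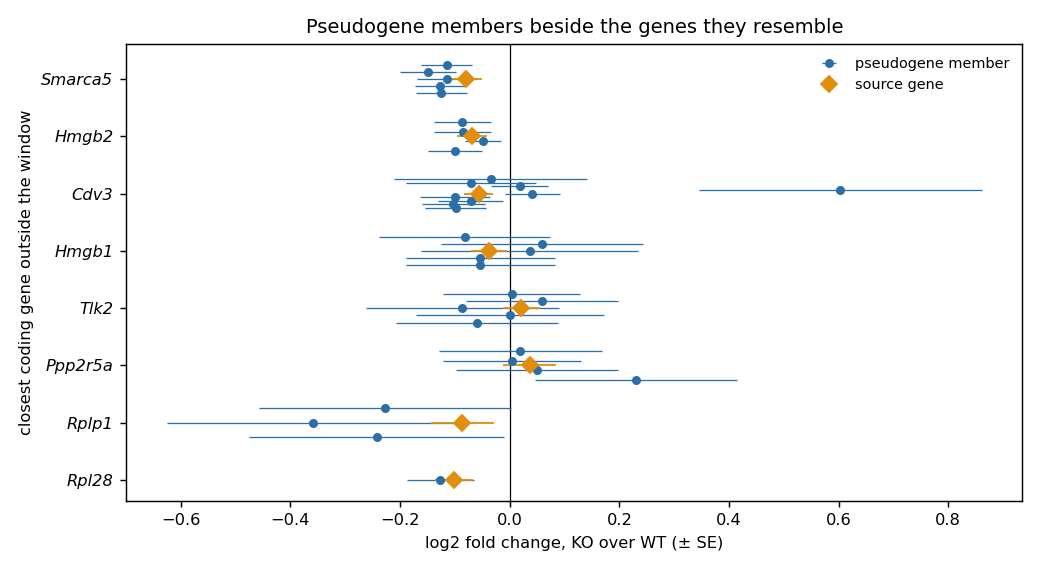
log2 fold change (libraries labelled KO over WT, edgeR) with standard errors of tested pseudogene members (circles), in rows by the coding gene outside the window that each most resembles, and of that gene (diamonds). Gm13207, a copy of Nsa2, and tested pseudogenes with no parent gene assigned are left out. The copies of Smarca5, Hmgb2, Rplp1 and Rpl28 lie left of 0 with their parent genes, and none passed.

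Of the 29 genes of the same window outside the symbol rule, 20 were tested and 2 passed: Znf41-ps, higher, and Rex2, lower. That is 10% against 5.14% of all genes, and an unadjusted p under 0.05 in edgeR was reached by 15% against 15.6%. Znf41-ps and Rex2 are copies within the families described above. Mfn2, a mitochondrial fusion GTPase gene of the window, did not pass (log2 fold change -0.07).

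Zinc finger genes elsewhere gave other values. A cluster region of chromosome 13 was taken by the same symbol rule from 60000000 to 69000000. There 0 of 126 genes tested passed in edgeR, against 5.14% of all genes, and 0 in DESeq2 or limma voom. An unadjusted p under 0.05 was reached in edgeR by 5, or 3.97% against 15.6% of all genes. The median log2 fold change was 0.027. Levels were lower there, with a median of 0.528 CPM per kb over all 272 genes against 4.22 over the 83 members. Of 319 tested Zfp genes outside both regions, 7 were higher and 2 lower in edgeR, or 2.19% and 0.627% against 2.35% and 2.8% of all genes, with a median of 0.041. The counts were 2 and 1 in DESeq2, with 373 of all genes higher and 412 lower. With the length and GC offset they were 3 and 4, with 441 of all genes higher and 635 lower. Whether the chromosome 4 cluster differs from these was not tested.

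Of 9 tested KRAB zinc finger genes with known targets, 0 passed in edgeR, DESeq2 or limma voom, against 5.14% of all genes in edgeR. An unadjusted p under 0.05 was reached in edgeR by 1, or 11.1% against 15.6% of all genes. The most abundant, the imprinting regulators Zfp445 and Zfp57, had log2 fold changes of 0.01 and -0.07. Of 16 co-repressors and chromatin proteins that act with such factors, 3 were higher and 1 lower in edgeR, 25% against 5.14% of all genes. DESeq2 gave 3 and 0, with 373 of all genes higher and 412 lower. The length and GC offset gave 2 and 1, with 441 of all genes higher and 635 lower. Setdb1, which methylates histone H3 at sites bound by TRIM28, went from 89.4 ± 2.93 to 97.9 ± 2.54 CPM (SD, n = 4 each; log2 fold change 0.13, edgeR adjusted p = 0.00889). The chromatin remodellers Atrx (0.11) and Smarcad1 (0.13) were higher and the histone deacetylase gene Hdac2 (-0.11) was lower.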

How the data were processed

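The authors deposited raw, unnormalized counts of reads per gene in 1 table. The submitters' processing notes name STAR 2.5.2b, Subread, featureCounts and DESeq2 with GRCm38; read length, strand and the handling of reads with several positions are not given in the sources used here. Symbols came from GENCODE M21 (55141 of 55487 IDs). In R 4.3.3, edgeR 4.0.16 with filterByExpr and TMM compared KO with WT (quasi-likelihood test with robust dispersion, two-sided), adjusted over 23190 genes. CPM are TMM-scaled. In simulated counts for this comparison (22849 genes) the test recovered 4.0% of genes changed 1.1-fold and 68.0% at 1.25-fold. At 1.5-fold it recovered 84.0% and at 2-fold 98.0%, and 6 of 133 calls were false. The changed genes, 50 at each fold, were drawn only from genes with an average log2 CPM above 1. These shares therefore do not cover tested members below that level.

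Parent genes of pseudogenes are the best BLASTN 2.17.0 hit among coding transcripts outside the window, at 80% identity or more. Genes named are all called members, the 12 highest per length, the next 6 by p, near-equal or overlapping pairs, and the called or most abundant genes of the other lists; a few others were named after their values were seen. Members, lists and tests were chosen with earlier results of these data known. Alternatives were other scalings and filters, DESeq2 1.42.0, limma 3.58.1 voom, a replicate block, a length and GC offset, families as 1 entry (added after seeing the data), overlapping members summed, another threshold, and each library left out. Libraries of a group differed by more than sampling noise. Same-numbered libraries did not deviate together.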

Additional observations from a re-analysis of the deposited data

Results flagged for a closer look

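In 2 of 66 groups of 4 libraries examined for a value far from the others, 1 library stood apart, and chance gives about 1 in 20. Zfp992 was at 65.5 CPM in WT replicate 2, with the other WT libraries at 74.4 to 75.9. Gm13233, a pseudogene of Ppp2r5a, was at 4.92 CPM in KO replicate 4, with the others at 4.402 to 4.482. Without WT replicate 2, Zfp992 was still higher with the KO label.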

How the results depend on the processing

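The 5 called members passed in every alternative on the 64 members, apart from Zfp600 without KO replicate 1 or 3. Calls among members rose from 5 to 10 with the length and GC offset (6 lower). Over all genes 441 were then higher and 635 lower, against 544 and 649 without the offset. At an adjusted p under 0.10, 8 members were called (3 lower), with 763 of all genes higher and 857 lower. With families as 1 entry (28 entries tested) 2 were higher and 0 lower, with 538 of all genes higher and 649 lower. Library totals alone gave 3 members lower, with 426 of all genes higher and 836 lower. All genes called fell from 1193 to 785 with DESeq2. Leaving out 1 library gave 4 to 9 members called, 0 to 4 of them lower. Over all genes 898 to 1040 were then called, 501 to 550 of them lower. Medians of the members ran from -0.039 to 0.0084, with an SD between libraries of 0.017.

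With the replicate number as a block, 5 members (4 higher, 1 lower) and 1249 genes were called, and no call among the members changed; the numbers do not pair the libraries, with correlations of same-numbered libraries from -0.014 to 0.023.

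Of the 30 members named by rule, those that changed sign did not pass under any setting run; the other members were not followed in this way. Zfp984 became -0.027 with the length and GC offset, and Gm13146 became 0.0028 with families as 1 entry. With a library left out, Zfp984 ran from -0.035 to 0.058, Gm13241 from -0.021 to 0.097, Gm13238 from -0.032 to 0.066, Gm13244 from -0.030 to 0.063, and Gm8178 and Gm13155 from -0.136 to 0.047. The cause was not tested. Standard errors ran from 0.033 to 0.41, so small changes in members with few reads were not detectable at this depth.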
